A study of Drosophila melanogaster with 10 samples.

Results

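The genes described here encode the GINS complex (Psf1, Psf2, Psf3 and Sld5) and the minichromosome maintenance (MCM) proteins Mcm2, Mcm3, Mcm4, Mcm5, Mcm6 and Mcm7 of Drosophila, of which Mcm4 is encoded by the gene dpa. They were chosen by name. Where a gene has several probe sets, the brightest on average over the 10 arrays was to stand for it, but a single probe set named each of 9 of the 10 genes, all 4 GINS genes and 5 of the 6 MCM genes, out of 11982 genes named by a probe set in the table. Mcm7 was not analysed here. All 9 passed the filter on low values (a mean log2 value of at least 4). By the RefSeq annotation Psf1 lies on chromosome arm 3L, Psf2 on 2L, dpa on 2R, and Sld5, Mcm2 and Mcm5 on 3R, while Psf3, Mcm3 and Mcm6 lie on the X.

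The MCM proteins form a ring that is loaded around DNA at replication origins before S phase and is the motor of the replicative helicase. GINS and Cdc45 join the loaded ring at the start of S phase, and the joined assembly, known as CMG and purified as an active helicase from Drosophila embryos, unwinds DNA ahead of the polymerases. GINS has no motor of its own and helps to hold the assembly together. In many animals MCM proteins are made in large excess over the origins that fire.

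RNA came from SL2 cells, an established male line with hemocyte (blood cell) character derived from embryos. Cells received 10 µg of double-stranded RNA (dsRNA) and were grown for 7 days. The groups were M2 (3 arrays) and M1 (3 arrays), a pair of dsRNA constructs that target MBD-R2, which belongs to the chromatin-binding NSL complex, then 1 array without dsRNA, and GST dsRNA as the control (3 arrays). MBD-R2 itself was not analysed here, and the extent of its loss is unknown, so the word knockdown stands for the treatment. One M2 array, replicate 3, is titled M3 but carries M2 in its other labels, and was kept in M2. Without it the same counts of GINS and MCM genes, 3 and 4, passed as lower in the combined test below. Values are log2 expression on GCRMA-processed arrays, whose lowest value in the table was 2.22. Levels of different genes are not comparable on this scale, so only changes are compared between genes.

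All 10 hemocyte markers passed the filter and 1 of them, the phagocytosis receptor gene NimC1, rose with knockdown (2.203 ± 0.27, SE, adjusted p = 0.000633 in limma). Of 5 measured markers of other cell types only the neuronal gene elav passed the filter, and it did not pass limma's test (1.06 ± 0.57, adjusted p = 0.229). With the replicate number as a block 2 hemocyte markers and elav passed as higher. GST replicate 2 had a higher spike-in median (12.77) than GST replicates 1 and 3 (10.33 and 10.45). Replicate 3 of each dsRNA group stood apart from replicates 1 and 2. The 3′ minus 5′ difference of the actin control, a sign of RNA or labelling quality, was 2.31 to 2.84 log2 units in the 3 arrays of replicate 3, 2.77 in the array without dsRNA and 0.32 to 1.16 in the 6 arrays of replicates 1 and 2. Over all tested probe sets limma called 25.3% changed by knockdown and 17.4% lower, with a median log2 fold change of -0.03. With the replicate number as a block 43.7% were called, 25.7% lower and 18% higher.

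Knockdown was set against GST dsRNA to ask which of these transcripts depend on MBD-R2. Of the 9 measured genes 7 fell and 0 rose in limma's test, 3 of 4 GINS genes and 4 of 5 MCM genes, where 17.4% of all tested probe sets fell. The GINS falls were 3.01-fold to 8.12-fold, and the MCM falls 1.89-fold to 1.94-fold. Psf3 and dpa were the members that did not pass. In 7 of 9 genes every knockdown array lay below every GST array, as did 21.7% of all tested probe sets. The arrays measure RNA from whole cultures, so fewer cells in S phase and less RNA per cell cannot be told apart.

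**Figure D1:**
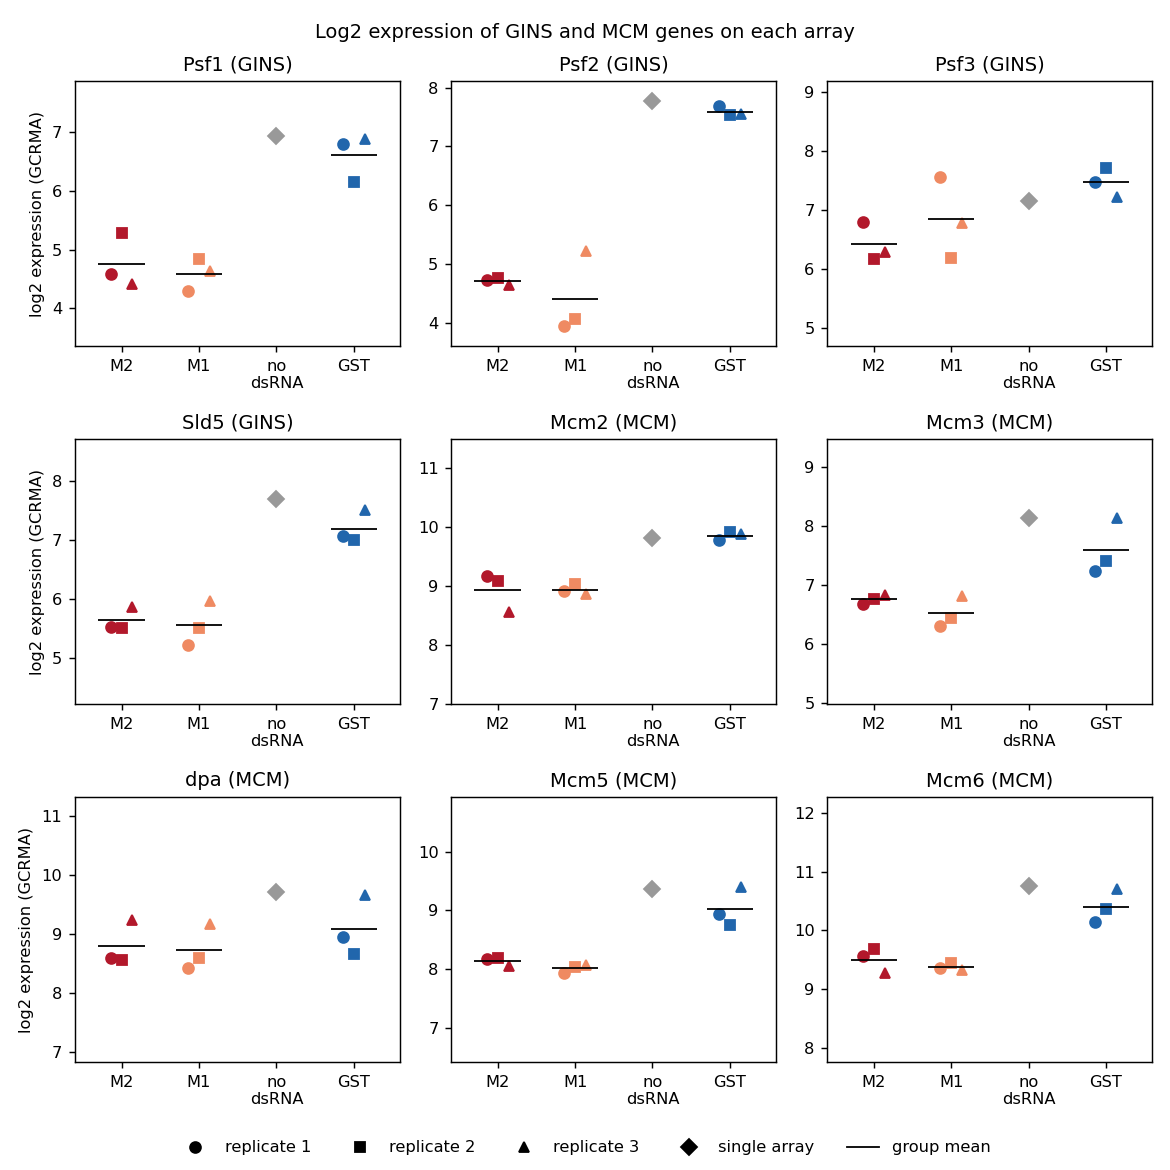
Log2 expression (GCRMA) of the 9 measured genes on each array, in columns for M2, M1, no dsRNA and GST. Points are arrays, their shape gives the replicate, lines are group means, and each panel spans the same number of log2 units. In all panels but those of Psf3 and dpa the M2 and M1 points lie below all GST points, and the gap is widest for Psf2.

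Psf2 showed the largest change of the GINS genes. Its log2 level was 4.73, 4.76 and 4.64 in M2 arrays and 3.95, 4.07 and 5.23 in M1 arrays, against 7.69, 7.53 and 7.55 in GST arrays. The GST values were tightly grouped, and the highest knockdown value was 2.30 below the lowest of them. Knockdown arrays averaged 4.57 ± 0.48 (SD, n = 6) and GST arrays 7.59 ± 0.09 (SD, n = 3). The log2 fold change was -3.02 ± 0.27 (SE, adjusted p = 0.000162 in limma), which left 12.3% of the GST level. Of the 7298 probe sets tested, 61 fell further.

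Psf1, another small GINS subunit, had log2 levels of 4.59, 5.28 and 4.41 in M2 arrays and 4.30, 4.84 and 4.63 in M1 arrays, against 6.79, 6.15 and 6.88 in GST arrays. No knockdown value came within 0.88 of the lowest GST value, that of replicate 2. The change was -1.93 ± 0.25 (SE, adjusted p = 0.00101 in limma), to 26.2% of the GST level. Sld5, the GINS subunit with the different name, had 5.52, 5.51 and 5.87 in M2 arrays and 5.22, 5.50 and 5.97 in M1 arrays, against 7.07, 7.00 and 7.50 in GST arrays. Its groups were likewise separate, with replicate 3 the highest array in each of them. Sld5 changed by -1.59 ± 0.21 (SE, adjusted p = 0.000903 in limma), to 33.2% of the GST level.

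Psf3, the remaining GINS subunit, had log2 levels of 6.80, 6.17 and 6.29 in M2 arrays and 7.56, 6.18 and 6.78 in M1 arrays, against 7.48, 7.71 and 7.23 in GST arrays. M1 replicate 1 lay inside the GST range, and the other knockdown arrays lay below it. The log2 difference was -0.84 ± 0.30 (SE, interval -1.54 to -0.15 at a confidence level of 0.95), with an adjusted p of 0.0775 in limma. With the replicate number as a block the adjusted p in limma was 0.0271, and without M1 replicate 1 the difference was -1.03 with an adjusted p of 0.0197.

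Of the MCM genes, 4 had nearly the same change, between -0.92 and -0.96. Mcm2, which encodes a ring subunit that also binds histones, had log2 levels of 9.17, 9.09 and 8.57 in M2 arrays and 8.92, 9.03 and 8.87 in M1 arrays, against 9.78, 9.92 and 9.88 in GST arrays. The GST arrays differed by little, and all knockdown arrays lay at least 0.60 below them. Mcm2 changed by -0.92 ± 0.16 (SE, adjusted p = 0.00377 in limma), to 52.8% of the GST level.

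Mcm5, which pairs with Mcm2 at the gate through which the ring opens, had 8.17, 8.20 and 8.06 in M2 arrays and 7.94, 8.04 and 8.08 in M1 arrays, against 8.94, 8.75 and 9.40 in GST arrays. The knockdown arrays were closely grouped, whereas GST replicate 3 stood above the other GST arrays. The change was -0.95 ± 0.16 (SE, adjusted p = 0.00336 in limma). Mcm6, a ring subunit, had 9.57, 9.68 and 9.27 in M2 arrays and 9.37, 9.44 and 9.33 in M1 arrays, against 10.14, 10.37 and 10.70 in GST arrays. Its groups did not overlap, and its change was -0.96 ± 0.16 (SE, adjusted p = 0.00354 in limma).

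Mcm3, another ring subunit, had log2 levels of 6.68, 6.76 and 6.84 in M2 arrays and 6.31, 6.44 and 6.82 in M1 arrays, against 7.24, 7.41 and 8.15 in GST arrays. All knockdown arrays were below the GST arrays, by at least 0.40, and GST replicate 3 was again the highest. The change was -0.96 ± 0.22 (SE, adjusted p = 0.0144 in limma). This call was lost without the level filter (adjusted p = 0.0546) and after quantile normalisation (-0.69, adjusted p = 0.0528).

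The gene for Mcm4, dpa, had 8.60, 8.56 and 9.25 in M2 arrays and 8.43, 8.59 and 9.18 in M1 arrays, against 8.96, 8.66 and 9.66 in GST arrays. In each group replicate 3 was the highest array, and the groups overlapped. The difference was -0.33 ± 0.28 (SE, interval -0.98 to 0.32, adjusted p = 0.47 in limma). Each of the 6 knockdown arrays lay below the GST array of its own number, with differences of -0.53 to -0.08. With the replicate number as a block the interval was -0.60 to -0.06 (adjusted p = 0.0545 in limma). The blocked interval does not reach the point estimates of the other MCM genes (-0.92 to -0.96), but the interval without a block (-0.98 to 0.32) contains them. The blocked interval slightly overlaps those of Mcm2 (-1.25 to -0.59) and Mcm6 (-1.33 to -0.58) with the same block, but not those of Mcm3 and Mcm5. No test set dpa against the other MCM genes. With the array set (replicate 3 against replicates 1 and 2) as a block dpa passed limma's test (adjusted p = 0.0314).

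The calls were also examined under other scalings of the arrays. After median centring 3 GINS and 4 MCM genes passed as lower, as did 1164 of all 7298 tested probe sets. After quantile normalisation 3 GINS and 3 MCM genes passed as lower, as did 1107 of the 7298. After centring on the spike-in controls, which moved the median of all tested probe sets by 0.24 to 0.21, 1 of the 9 genes passed as lower in limma, Psf2, and 1.58% of all probe sets did. The median change was then -1.52 for GINS and -0.71 for MCM genes. Relative to the median of all probe sets these are -1.73 and -0.92, as with the deposited scaling. This is so by construction, since the centring shifts all probe sets of an array by the same amount. With the same centring but without GST replicate 2, a fit added after seeing the data, 7 genes passed as lower (14.8% of all probe sets), with medians of -2.48 for GINS and -1.53 for MCM genes.

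GINS was then compared with MCM. For each array the change of every gene from its own GST mean was averaged over the complex. The GINS mean was -1.81, -1.79 and -1.91 in M2 arrays and -1.96, -2.07 and -1.56 in M1 arrays, against 0.04, -0.12 and 0.07 in GST arrays. The MCM mean was -0.76, -0.74 and -0.80 in M2 arrays and -1.004, -0.89 and -0.74 in M1 arrays, against -0.19, -0.17 and 0.36 in GST arrays. In each of the 6 knockdown arrays the GINS mean was therefore lower, relative to GST, than the MCM mean.

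The difference, GINS minus MCM, was -1.02 ± 0.13 (SD, n = 6) in knockdown arrays and varied around 0 with an SD of 0.26 in GST arrays (n = 3). This corresponds to a 2.03-fold deeper fall of GINS transcripts on average. Set against the GST array of the same number, it was -1.27, -1.11 and -0.82 in M2 replicates 1, 2 and 3. In M1 replicates 1, 2 and 3 it was -1.18, -1.23 and -0.53. It was thus smallest in replicate 3 with either construct, but both share GST replicate 3, whose own value was -0.29. Before that subtraction M2 replicate 3 had the largest M2 difference (-1.11, against -1.045 and -1.046). M1 replicate 3 still had the smallest M1 difference (-0.82). Psf2, Psf1 and Sld5 were each below every MCM gene in 6 of 6 knockdown arrays, and Psf3 in 2 of 6. Psf2 weighed most in the mean, and without it the difference was -0.76 to -0.39 across knockdown arrays. With the filter at a mean of 6, which drops Psf1 and Psf2, it was -0.39, and after quantile normalisation -0.80. The comparison is a description without a test, because the genes were chosen with results of these arrays known.

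**Figure D2:**
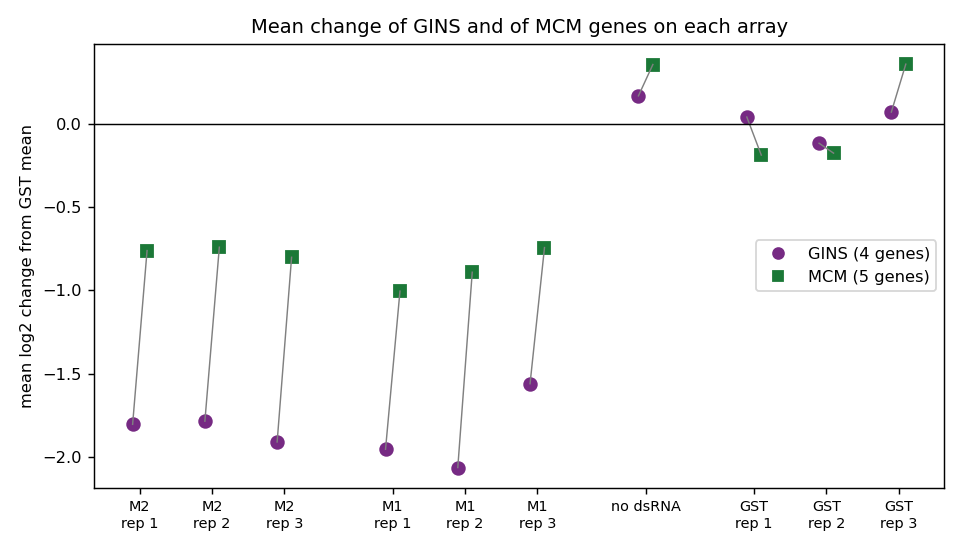
Mean log2 change from the GST mean of each gene, averaged over the 4 GINS genes (circles) and the 5 MCM genes (squares), for each M2, M1, no-dsRNA and GST array. In the 6 knockdown arrays the GINS points lie between -2.07 and -1.56 and the MCM points between -1.004 and -0.74, without overlap.

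The median log2 fold change was -1.76 over the 4 GINS genes and -0.95 over the 5 MCM genes, against -0.03 over all tested probe sets. Falls of more than 2-fold that passed limma's test were found for 3 of 4 GINS genes and 0 of 5 MCM genes, and for 11.4% of all probe sets. The MCM count depends on this cutoff, since the MCM genes that passed fell 1.89-fold to 1.94-fold. With M1 alone Mcm3, Mcm5 and Mcm6 passed with falls of 2.11-fold, 2.02-fold and 2.03-fold. With M2 the same genes were lower by 1.79-fold, 1.85-fold and 1.86-fold. The 4 GINS genes ended at 12.3% to 55.7% of their GST level, and the 5 MCM genes at 51.5% to 79.7%. Pearson's r between the profiles of a pair of genes over the 10 arrays was 0.49 to 0.97 within GINS (6 pairs), 0.35 to 0.97 within MCM (10 pairs) and 0.09 to 0.97 between the complexes (20 pairs). These correlations share the group difference and the array sets.

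Each construct was also set against GST on its own. With M2 6 of the 9 genes fell (13.5% of all probe sets fell), and with M1 7 fell (14.7%). The 6 genes that fell with both (12.8% of all probe sets) were Psf1, Psf2, Sld5, Mcm2, Mcm5 and Mcm6. Psf2 changed by -2.88 ± 0.31 with M2 and -3.17 ± 0.31 with M1, and Mcm2 by -0.92 ± 0.18 with either. Mcm3 changed by -0.84 with M2 (adjusted p = 0.054 in limma) and -1.07 with M1 (adjusted p = 0.0197). Blocking on the replicate number gave 8 members lower with M2 and 7 with M1 in limma. The blocked share of all probe sets was not computed for either construct. In the combined comparison the block raised the share called lower from 17.4% to 25.7%. The higher M2 count with the block is therefore not a result about these genes. The constructs share the GST arrays, so their changes are not independent of each other.

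When M2 was set directly against M1, none of the 9 genes passed, and limma called 0% of all probe sets, with 19 of 7298 at an unadjusted p under 0.05. The largest difference among the members was that of Psf3, lower by 0.42 log2 units with M2 (-0.42 ± 0.35, SE, interval -1.22 to 0.38). For Psf2 the difference was 0.29 (interval -0.43 to 1.01), and for Mcm2 it was 0.00 (interval -0.42 to 0.43). These intervals do not show that the constructs act alike, since differences of 0.4 log2 units or more lie within them.

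**Figure D3:**
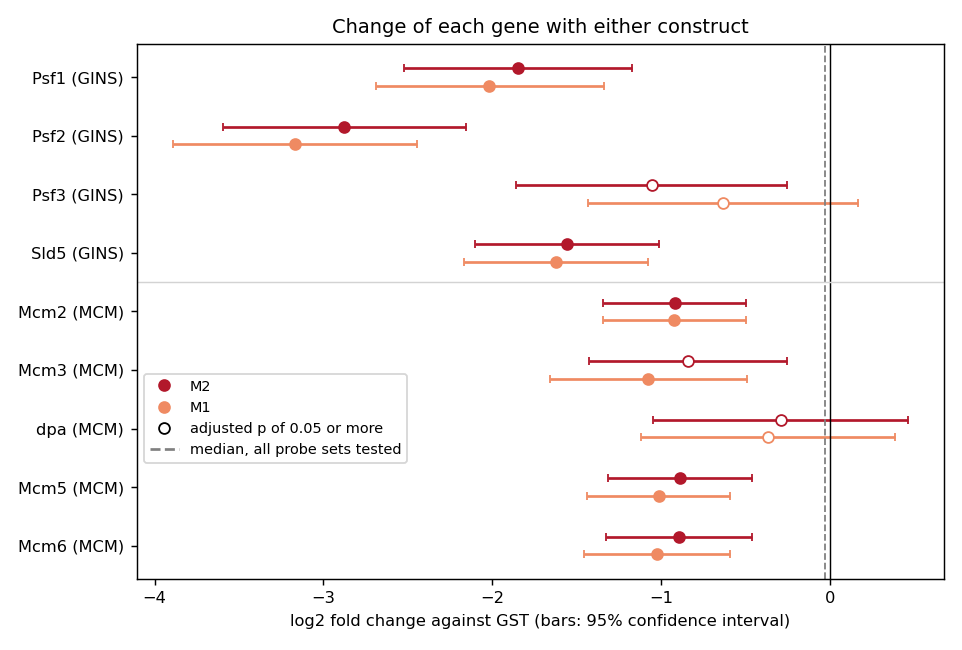
Log2 fold change of each gene against GST with M2 (dark red) and M1 (orange), with 95% confidence intervals from limma. Open points had an adjusted p of 0.05 or more, and the dashed line marks the median of all tested probe sets (-0.03). The M2 and M1 intervals overlap for every gene, and Psf2, Psf1 and Sld5 lie furthest to the left.

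The array without dsRNA was set against GST dsRNA. As 1 array that stands with replicate 3 by its actin control, it cannot tell dsRNA exposure apart from the array set. The log2 level of Psf2 was 7.77 without dsRNA, against 7.59 ± 0.09 (SD, n = 3) in GST arrays, and Psf1 6.92 against 6.61 ± 0.40. Mcm2 had 9.82 against 9.86 ± 0.08, and Mcm6 10.75 against 10.40 ± 0.28. For the 7 genes that fell with knockdown this array lay above every knockdown array. In limma 0 of the 9 genes and 0% of all probe sets passed, with 68 probe sets at an unadjusted p under 0.05. The test rests on 1 array, for which the spread of the other groups was used. The MCM genes Mcm3, dpa, Mcm5 and Mcm6 stood closest to GST replicate 3, at 8.14, 9.72, 9.36 and 10.75 without dsRNA and 8.15, 9.66, 9.40 and 10.70 in that GST array.

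The change was also examined within each set of arrays. All 9 genes were below GST both in replicate 3 and in replicates 1 and 2. The MCM median was -1.32 in replicate 3 and -0.76 in replicates 1 and 2, and the GINS median -1.96 and -1.66. Of the GINS genes, however, only Psf1 fell further in replicate 3. Psf2, Psf3 (-0.70 against -0.92) and Sld5 (-1.57 against -1.60) fell less there than in replicates 1 and 2. Mcm6 changed by -1.40 in replicate 3 and -0.74 in replicates 1 and 2, a difference of -0.67 ± 0.20 (SE, adjusted p = 0.0946 in limma), and Mcm5 by -1.33 and -0.76 (adjusted p = 0.102). Psf1 changed by -2.35 in replicate 3 and -1.72 in replicates 1 and 2, a difference of -0.63 ± 0.51 (adjusted p = 0.496 in limma). Psf2 had -2.61 in replicate 3 and -3.23 in replicates 1 and 2, a difference of 0.62 ± 0.48 (adjusted p = 0.478 in limma). For 0 of the 9 genes did the sets differ in this test (8.78% of all probe sets), with Mcm3, Mcm5 and Mcm6 at an unadjusted p of 0.0318, 0.0165 and 0.014. Replicate 3 has 1 GST array, and its arrays also had the higher 3′ minus 5′ difference given above, whose part in these values was not tested.

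**Figure D4:**
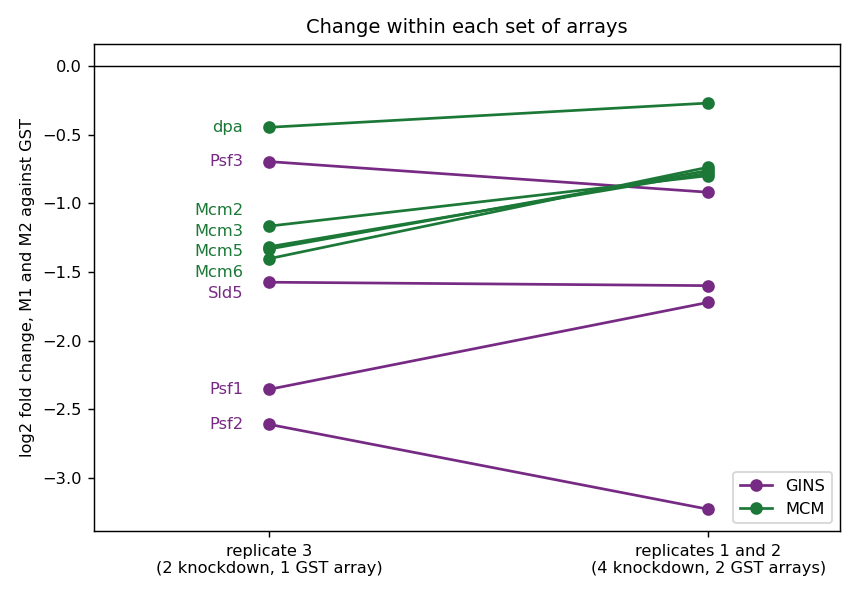
Log2 fold change of M1 and M2 against GST within replicate 3 (left) and within replicates 1 and 2 (right), with GINS genes in purple and MCM genes in green. Psf1 and all 5 MCM genes lie lower in replicate 3, Psf2, Psf3 and Sld5 lie lower in replicates 1 and 2, and all points are below 0.

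Other replication genes were set beside these by their roles. Probe sets named 9 of 9 listed helicase partners, 23 of 26 polymerase and fork genes, 6 of 9 origin genes and 14 of 19 regulators, and the others were not analysed here. Among proteins that join or activate the helicase, 2 of 8 tested genes fell and 0 rose, with a median of -0.87 (5 fell and 0 rose with the replicate number as a block). RecQ4, which encodes a helicase-family protein that acts in replication initiation, changed by -1.87 ± 0.27 (SE, adjusted p = 0.00162 in limma). Cdc45, the partner of GINS and MCM in the CMG helicase, changed by -1.24 ± 0.36 (SE, adjusted p = 0.0386 in limma), with log2 levels of 5.90, 5.64 and 5.75 in M2 arrays and 4.22, 5.82 and 5.89 in M1 arrays, against 6.51, 6.75 and 7.07 in GST arrays. M1 replicate 1 was far below the other knockdown arrays. Mcm10, which encodes a fork protein outside the MCM ring, did not pass (-0.16 ± 0.28, adjusted p = 0.759 in limma), and rec, an MCM relative that acts in meiosis, did not pass the filter on low values.

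Among polymerase, primase and fork genes 11 of 22 tested fell and 1 rose, with a median of -0.74 (13 fell and 3 rose with the block). PolE4 and PolE2, which encode subunits of the leading-strand polymerase epsilon, changed by -1.52 ± 0.18 and -1.25 ± 0.17. DNAlig1, the ligase that joins Okazaki fragments, changed by -2.002 ± 0.27, and CG8142, a predicted subunit of the clamp loader, by -1.38 ± 0.18. The gene that rose was RPA1, the large subunit of the single-strand binding protein (0.97 ± 0.21, SE, adjusted p = 0.0104 in limma). Of 6 tested origin genes 3 fell and 0 rose (5 and 0 with the block), Orc4 (-2.58 ± 0.25), Orc5 (-1.85 ± 0.19) and Orc2 (-1.11 ± 0.28).

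Regulators of the passage from G1 to S phase had a median of -0.18, and 4 of 14 tested fell and 1 rose (6 and 1 with the block). Those that fell were mip40 (-1.04 ± 0.15), Rbf2 (-1.23 ± 0.22) and mip130 (-0.90 ± 0.17), and the cyclin E partner Cdk2 (-0.96 ± 0.24). The products of mip40, Rbf2 and mip130 belong to the dREAM complex, a repressor of cell cycle genes, but the other 5 of its 8 genes in the list did not pass, with changes of -0.21 to 0.10. CycD, which encodes cyclin D, rose by 0.53 ± 0.13. Falls and rises in these lists can be read against 17.4% lower and 7.85% higher among all tested probe sets, or 25.7% and 18% with the block.

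**Figure D5:**
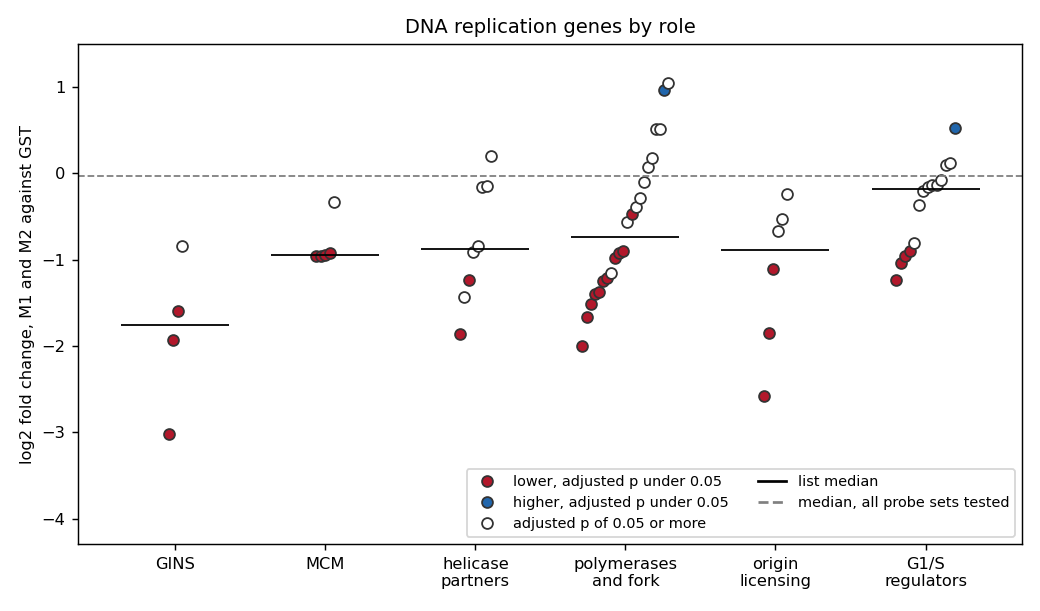
Log2 fold change of knockdown (M1 and M2) against GST for each tested gene of 6 lists, with the list median as a line and the median of all tested probe sets (-0.03) dashed. Red points fell and blue points rose in limma, and open points had an adjusted p of 0.05 or more. The GINS list has the lowest median (-1.76), and the MCM points that fell lie close together near -0.95.

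The genes whose profile over the 10 arrays was most like the GINS mean, among 4385 probe sets with a gene symbol, were nxf2 (r = 0.996), Uxt (r = 0.995) and Bet5 (r = 0.995). They encode an RNA export factor homologue, a prefoldin-like protein and a subunit of the TRAPP vesicle tether, and had log2 fold changes of -3.83, -4.23 and -2.12. Most like the MCM mean were Aos1 (r = 0.991), a subunit of the SUMO-activating enzyme, asl (r = 0.989), a centriole protein, and Targ1 (r = 0.987), with log2 fold changes of -0.70, -0.996 and -1.15. These are descriptions over 10 arrays that share the group difference, with no test.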

How the data were processed

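The authors deposited log2 expression values for 18952 probe sets on each of 10 arrays, made with GCRMA per the submitters' processing notes. GCRMA subtracts background, normalises the arrays to each other and combines the probes of a set, and it can compress low values. Its version is not given in the sources used here. Genes were named through the platform annotation and, by Entrez identifier, RefSeq's Release 6. With 183 control probe sets left out, the filter (a mean of 4 or more) kept 7298 for testing.

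Tests used limma 3.58.1 under R 4.3.3 (lmFit and eBayes on 4 group means of all 10 arrays) and were two-sided, adjusted by Benjamini-Hochberg over every probe set kept, at a threshold of 0.05. The number of arrays limits the precision. The effect by array set was fitted on the 9 dsRNA arrays with an interaction term. The method was tested on simulated data. Python 3.11.15 with matplotlib 3.10.9 drew the figures.

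Per the series text the replicates are biological. Deviations from group means of arrays with the same number correlated at 0.34 to 0.93 over 9 pairs. For M1 with M2 in replicates 1 and 2, same-number pairs were higher (0.788 and 0.834) than different-number pairs (0.699 and 0.748). For knockdown with GST in these replicates, same-number pairs were lower (0.34 to 0.488) than different-number pairs (0.545 to 0.675). In replicate 3 the number and the array set coincide. The numbers may thus pair M1 with M2, but these values do not show that they pair either with GST. The tests reported first have no block. In the combined comparison the blocked value stands beside a result where it changes a call or moves a count by over 1.5 times. For each construct only the blocked counts of members are given. Different numbers within an array set also correlated, at 0.55 to 0.75 over 6 pairs, and arrays across the sets at -0.89 to -0.54 over 12 pairs. Deviations cancel out within each group, so with replicate 3 apart these signs follow in part from the centring. Pairs and array sets are thus not told apart by these values.

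The members and lists were chosen with earlier results of these data known. Named genes were all members and up to 4 called genes each way of the other lists, ordered by adjusted p (with no call, the first in that order). The 3 genes most like each complex were also named, with members and genes with a bare CG or CR number left out. Mcm10, rec and the neighbours of members were named beyond this rule. Alternatives were the level filter, quantile, median and spike-in scaling, eBayes options, array weights, blocks, and leaving out arrays. Promoter motifs were not analysed here.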

Additional observations from a re-analysis of the deposited data

How the results depend on the processing

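No gene reversed its direction, but the blocks, the eBayes options, the level filter and a fit on the compared groups alone cannot change a gene's fold change. Of 187 gene and setting combinations, 175 kept their side of the threshold, 8 lost the call and 4 gained it. After spike-in centring 252 probe sets were called, with 1 GINS gene and 0 MCM genes lower in limma (Mcm2, Mcm3, Mcm5 and Mcm6 each had an adjusted p of 0.999). With this centring 1 member fell with M1 and 0 with M2 in limma. Without GST replicate 2 as well 1185 probe sets were called, with 7 members lower with M1 and 3 with M2. For single constructs the share of all probe sets called lower was not computed under any setting named here. Blocking on the replicate number gave 3189 calls, blocking on the array set 3541, and replicates 1 and 2 alone 2838. The replicate block cannot move the GINS minus MCM difference (-1.02), because each number holds 1 array of each dsRNA group. It called 4 GINS and 4 MCM genes lower (7 members with M1, 8 with M2), where 25.7% of all probe sets were lower in the combined comparison. In the combined comparison it changed no other call of a member than that of Psf3. The filter at a mean of 6, taken over all 10 arrays, removed Psf1 and Psf2, whose GST means were above 6. It left 1 GINS gene lower and a GINS minus MCM difference of -0.39. Quantile normalisation gave a difference of -0.80 (the cause was not tested). Of all calls 68.9% were lower as reported, 57.4% after quantile normalisation, 45.6% after spike-in centring, and 91.1% with that centring without GST replicate 2. An array set term for each construct gave 402 probe sets that differed between the sets, against 641 as reported, the cause not tested. Leaving out 1 array at a time, 1400 to 1784 probe sets were called, with 3 to 4 GINS and 4 to 4 MCM genes lower, 6 to 7 members lower with either construct, and a GINS minus MCM difference of -1.17 to -0.91. The M2 against M1 comparison called 0 to 0 in limma. Each member had 1 probe set, so averaging probe sets could not be tried.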

Other observations

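The genes next to or overlapping the 9 measured members on the chromosome were examined for their own values. Of 20 such neighbours, taken from the RefSeq annotation of Release 6, 12 passed the filter, 1 fell and 1 rose, with a median log2 fold change of -0.20. Of all tested probe sets 17.4% fell and 7.85% rose, so these counts are near the background. The one that fell was ND-ASHI, a gene of respiratory complex I next to Mcm6 (-0.83 ± 0.15, SE, adjusted p = 0.00521 in limma), and the one that rose was RPA1, next to Mcm2. Beside Psf2, Vps53 had -0.13 ± 0.36, and beside Psf1, Sac1 had 0.18 ± 0.30. Beside Sld5, CG14543 had -0.39 ± 0.26, and beside Psf3, flw had 0.07 ± 0.23. None of these 4 neighbours of GINS genes passed limma's test. The neighbours were chosen for position alone, and no cause was tested.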
